A study of Mus musculus with 6 samples.

Results

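MiR-221-3p and miR-222-3p, named mmu-miR-221-3p and mmu-miR-222-3p on the array, are a pair of mature miRNAs that are processed from neighbouring hairpins on the mouse X chromosome. They were chosen by name, as all mouse miRNA probes on the array whose miRNA name begins with miR-221 or miR-222, and they make up 2 of the 566 mouse miRNAs that the array holds. The array carried 4 probes for the pair, 2 for each member, with 10 spots per probe and 40 spots in all on each array. It held 0 probes for the 5p arms of either hairpin. The samples were LLC1 cells, a line established from a mouse Lewis lung carcinoma, and as the arrays read miRNAs only, the cell type was not checked against marker genes. In the 2D group, which served as control, cells grew for 48 h as a monolayer, and in the lr-ECM 3D group they grew for 48 h inside Geltrex, a laminin rich extracellular matrix mixture, at 0.5 mg/ml above a layer of agarose. Each group had 3 biological replicates, each with 1 single-colour array hybridised with 100 ng of Cy3-labelled total RNA. The comparison asked whether the level of either miRNA, or the proportion between them, differed between the culture conditions.

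A miRNA guides a silencing complex to messenger RNAs that pair with its seed, the short stretch near its 5′ end, and lowers the output of those messages. MiR-221 and miR-222 are transcribed together from a single primary transcript, share their seed and therefore share most predicted targets. In many tumours they are known for repressing Cdkn1b and Cdkn1c, which encode the p27 and p57 inhibitors of cyclin-dependent kinases (CDK) and hold back the cell cycle, as well as Kit, a receptor tyrosine kinase.

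The mature sequences are shown because they define what the pair has in common and what separates it, with the seed, bases 2 to 8 from the 5′ end, in capitals.
miR-221-3p: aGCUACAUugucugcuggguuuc
miR-222-3p: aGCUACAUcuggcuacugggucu
In RefSeq on build GRCm38.p6, miR-221-3p lies on the minus strand of chromosome X at chrX:19146307-19146329 and miR-222-3p at chrX:19146901-19146923. Both are 23 bases long. Their first 8 bases are identical, and compared position by position 11 of the 23 bases are the same and 12 differ. This comparison allowed no gap. Both sequences hold the run cugggu, offset by a base, so the count of 12 overstates how far they differ. The same sequences are repeated here with the bases that differ position by position in capitals, which all lie downstream of the seed.
miR-221-3p: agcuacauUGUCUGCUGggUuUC
miR-222-3p: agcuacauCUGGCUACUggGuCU
The hairpins show where each mature strand is cut from, with the mature 3p strand in capitals.
Mir221: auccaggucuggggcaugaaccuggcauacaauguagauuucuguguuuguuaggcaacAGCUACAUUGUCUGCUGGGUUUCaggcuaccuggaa
Mir222: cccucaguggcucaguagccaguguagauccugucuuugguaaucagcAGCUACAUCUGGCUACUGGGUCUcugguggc
The Mir221 hairpin spans chrX:19146294-19146388 (95 bases) and the Mir222 hairpin chrX:19146893-19146971 (79 bases), with 504 bases between them. In the RefSeq gene table no other annotated gene overlapped the hairpins, and the closest one was the lncRNA Gm14636, 9500 bases away at chrX:19156471-19237850. Of 1679 mature mouse miRNA names in the sequence table, 3 carried this seed. The third was miR-1928 from chromosome 1, which has 17 bases and was not on the array.
miR-1928: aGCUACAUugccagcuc
The sequences of the array probes themselves were not used here, so how far a probe for one member also captures the other was not tested.

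The arrays differed in brightness, which bears on both members. The mean raw signal over all miRNA probes was 21.4, 5.03 and 40.4 linear units in 2D and 49.9, 38.7 and 37.8 in lr-ECM 3D, values being listed here and below in the order of replicates 1, 2 and 3, so that the brightest array exceeded the dimmest by 9.92 times. The array of 2D replicate 2 stood apart as the dimmest, with 48 mouse miRNAs well above background (a flag set per spot by the scanner software), against 75 and 101 on the other 2D arrays and 120 to 151 on the lr-ECM 3D arrays. The 2D arrays lay together on 1 slide and scan and those of lr-ECM 3D on another, so slide and culture condition cannot be told apart in any comparison below. In total RNA from whole cultures, fewer cells that make a miRNA and less of it per cell cannot be told apart either.

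MiR-221-3p gave a measurable signal on every array. With its brighter probe, A_54_P3830, the raw signal was 183, 105 and 422 linear units in 2D and 374, 313 and 283 in lr-ECM 3D. The second probe, A_54_P2640, gave 122, 62.5 and 257 units in 2D and 233, 196 and 175 units in lr-ECM 3D. Before scaling, the lr-ECM 3D arrays therefore lay between the highest and lowest 2D arrays for both probes, and 2D replicate 2 was the lowest, as it was for the array as a whole. All 109 spots of miR-221-3p that entered the analysis were well above background.

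MiR-222-3p was closer to the limit of measurement. Its brighter probe, A_54_P2644, read 75.01, 17.3 and 109 linear units in 2D and 116, 86.6 and 78.5 in lr-ECM 3D. The second probe, A_54_P2643, read 49.1, 10.9 and 65.0 units in 2D and 67.4, 52.2 and 48.2 units in lr-ECM 3D. Before scaling, 2D replicate 2 was again the lowest array for both probes, and lr-ECM 3D replicate 1 the highest. On 2D replicate 2 the readings of both probes lay under 29.3 units, the lowest probe signal well above background on that array, and 0 of the 10 spots of either probe carried the flag there. On the other 5 arrays miR-222-3p was well above background with both probes. Over all arrays and the 4 probes, 228 of 240 spots were used, 12 were left out as outliers and 206 were well above background. The coefficient of variation among the spots of a probe on an array had a median of 15.2% and ranged from 2.45% for miR-221-3p to 47.1% for miR-222-3p on 2D replicate 2.

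**Figure D1:**
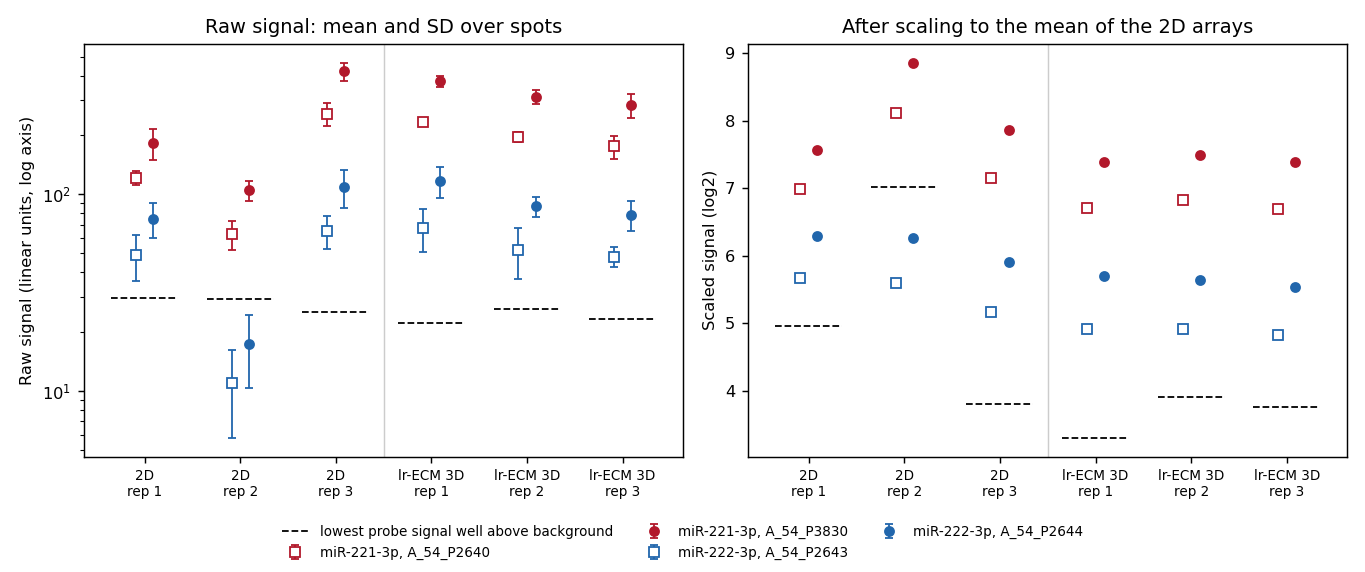
Left, raw signal of the 4 probes on each of the 6 arrays (linear units on a log axis; mean and SD over spots). Right, the same probes after each array was scaled to the mean of the 2D arrays (log2). Dashed lines mark the lowest probe signal well above background on each array, which was 29.3 units or a scaled log2 of 7.02 on 2D replicate 2. Both miR-222-3p probes lie under that line on this array, and after scaling both miR-221-3p probes are lower on all lr-ECM 3D arrays than on any 2D array.

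To compare the culture conditions, signals were scaled so that the miRNA probes of every array had the mean found in 2D, and the brighter probe of each miRNA was taken. The scaled log2 signal of miR-221-3p was 7.57, 8.86 and 7.86 in 2D, with a mean of 8.10 ± 0.67 (SD, n = 3). In lr-ECM 3D it was 7.38, 7.49 and 7.38, with a mean of 7.42 ± 0.06 (SD, n = 3). The groups did not overlap, all lr-ECM 3D arrays lay within a narrow range, and 2D replicate 2, whose factor of 4.43 was the largest, was the highest. The difference, lr-ECM 3D minus 2D, was -0.68 on the log2 scale (SE 0.35, 95% interval -1.54 to 0.19), or a lr-ECM 3D level of 0.626 of the 2D level (95% interval 0.343 to 1.14). The adjusted p in limma was 0.276, so the difference did not pass the threshold. Without 2D replicate 2 the difference was -0.30 (limma, adjusted p = 0.113).

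The scaled log2 signal of miR-222-3p was 6.29, 6.26 and 5.91 in 2D, with a mean of 6.15 ± 0.21 (SD, n = 3), where the second value lay below the 7.02 that marks the lowest signal well above background on that array. In lr-ECM 3D it was 5.70, 5.64 and 5.53, with a mean of 5.62 ± 0.08 (SD, n = 3). Each lr-ECM 3D array was lower than 2D replicates 1 and 3, and for 2D replicate 2 the true level has only an upper bound, so whether the groups overlap was not measured there. The difference was -0.53 (SE 0.15, 95% interval -0.91 to -0.15), or 0.693 of the 2D level (95% interval 0.533 to 0.900). The adjusted p in limma was 0.0879, which did not pass the threshold, and miR-222-3p was among the 6.67% of tested miRNAs that were lower in lr-ECM 3D at an unadjusted p under 0.05. Without the dim array of 2D replicate 2, where miR-222-3p was only a bound, the difference was -0.47 (limma, adjusted p = 0.0327). This p passed the threshold of 0.05 while the fold stayed under 2, and in the same comparison 38% of the tested miRNAs had an adjusted p under 0.05. Without 2D replicate 3 the difference was -0.65 with an adjusted p of 0.0476 in limma, in a comparison where 13.3% of the tested miRNAs lay below the threshold for p.

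Neither member was called, a miRNA being called when the adjusted p was under 0.05 and the fold reached 2. Among the 120 tested mouse miRNAs 14 were called (11.7%), 13 higher and 1 lower in lr-ECM 3D. With the filter on all 6 arrays 0 of 48 were called, so these calls rest on miRNAs that were not well above background on every array. Without 2D replicate 2 there were 32 calls (26.4% of those tested), 27 higher and 5 lower, with neither member among them. Quantile normalization gave 24 calls, 19 higher and 5 lower, and these included miR-222-3p. The second probes gave differences of -0.68 for miR-221-3p and -0.60 for miR-222-3p, and for both miR-221-3p probes the groups did not overlap. In the exact permutation test, two-sided, both miR-221-3p probes had p = 0.1, which is the lowest that groups of 3 and 3 can reach. The readings of the miR-222-3p probes did not overlap either, but on 2D replicate 2 they were not well above background and have no firm place in that order. Groups without overlap were common on these arrays, with 42.5% of tested miRNAs in either direction and 22.5% lower in lr-ECM 3D. Among the 48 that passed the detection flag on each of the 6 arrays, 37.5% were lower in lr-ECM 3D without overlap.

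Since most miRNAs had differences of the same sign under this scaling, the pair was also read against them. The median log2 difference of the 120 tested miRNAs was -0.11, with 44 above 0 and 76 below, and counted from the lowest difference miR-221-3p ranked 8 and miR-222-3p ranked 13. Of the 48 that passed the detection flag on each of the 6 arrays, 46 lay below 0, with a median of -0.27. Relative to that median the difference was -0.40 for miR-221-3p and -0.26 for miR-222-3p. MiR-222-3p is itself not among the 48, because its reading on 2D replicate 2 was not well above background, and its difference includes that reading. These ranks held for this scaling and changed with some others, as given below, and without 2D replicate 2 they were 20 for miR-221-3p and 10 for miR-222-3p.

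**Figure D2:**
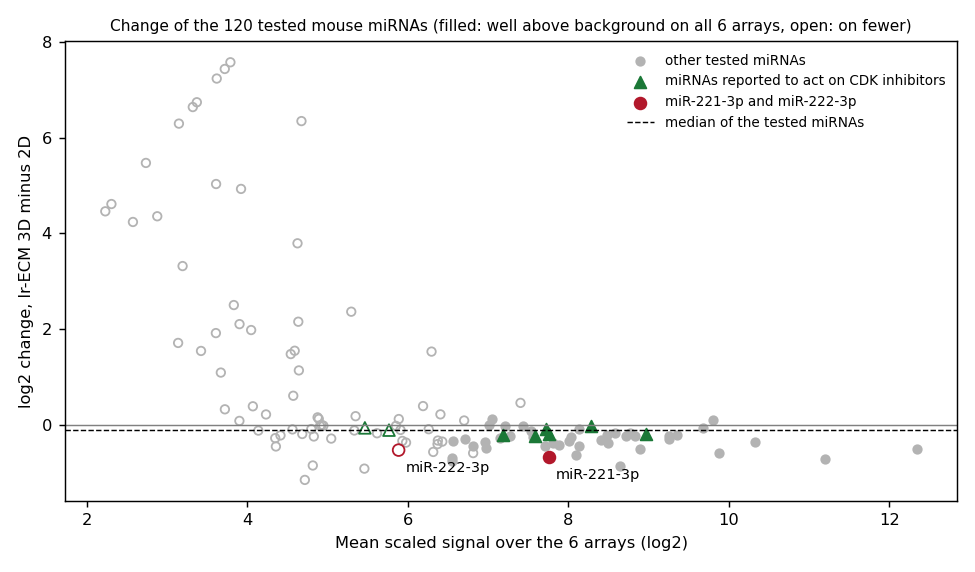
Log2 difference (lr-ECM 3D minus 2D) of the 120 tested mouse miRNAs against their mean scaled log2 signal over the 6 arrays. Filled symbols mark the 48 that were well above background on every array, red points the pair, green triangles the 8 tested miRNAs reported to act on CDK inhibitors, and the dashed line the median of -0.11. MiR-221-3p at -0.68 and miR-222-3p at -0.53 lie below the median and below all the green triangles. The largest positive differences belong to miRNAs with a low mean over the 6 arrays. That mean joins both groups, so it does not show how bright they were in lr-ECM 3D.

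The sign of the difference depended on how the arrays were brought to a common scale. For miR-221-3p the difference was -0.36 when arrays were scaled to the 75th percentile of the probes detected on all arrays, -0.53 with the 75th percentile of all probes, -0.52 with quantile normalization and -0.48 with the total gene signal of the scanner software, but 0.68 without scaling, 0.18 with normexp background correction and 0.18 with the log2 values the authors deposited. For miR-222-3p it was -0.21, -0.38 and -1.03 with the first 3 of these settings in the same order and -0.02 with normexp, but 0.83 without scaling, 0.38 with the deposited log2 values and 1.66 with the total gene signal, which set miR-222-3p on 2D replicate 2 to its floor. The quantile value of miR-222-3p was the only one of these that was called (limma, adjusted p = 0.00249), in a comparison where 4.13% of the tested miRNAs were called lower. That call includes the miR-222-3p reading on 2D replicate 2, which was not well above background. Those settings moved the median of all tested miRNAs too, to 0.21 with the 75th percentile of detected probes, 0.04 with that of all probes, 1.24 without scaling, -0.08 with quantile normalization, 0.41 with normexp, 0.66 with the total gene signal and 0.76 with the deposited values. Settings that only shift each array by a constant, namely both 75th percentiles, no scaling and the deposited values, leave the value relative to the median nearly fixed by construction, so they are no separate check of it. In the settings that can move it, miR-221-3p lay at -0.44 relative to the median with quantile normalization, -0.23 with normexp and -1.13 with the total gene signal, with ranks of 28, 38 and 3 from the lowest. MiR-222-3p lay at -0.95, -0.42 and 1.01 in the same order, with ranks of 4, 17 and 75.

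**Figure D3:**
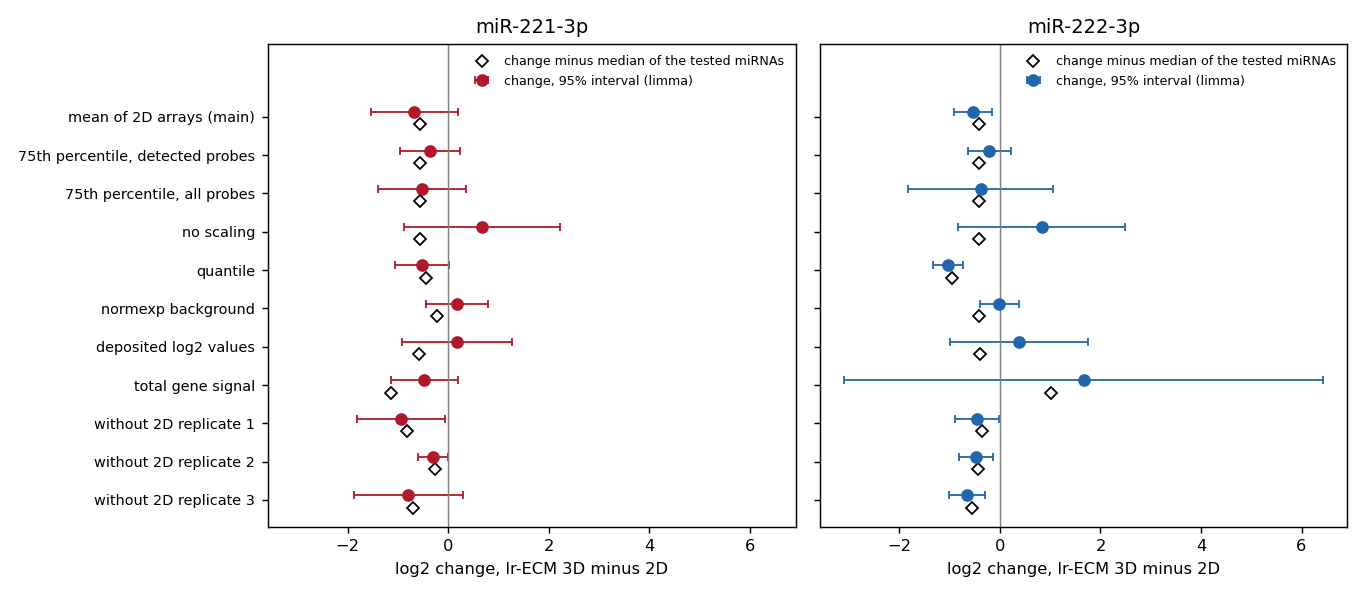
Log2 difference (lr-ECM 3D minus 2D) of miR-221-3p and miR-222-3p under each scaling or signal summary and without each 2D array in turn. Coloured points and bars give the estimate and its 95% interval in limma, and open diamonds give the estimate minus the median of the tested miRNAs. Estimates of both members lie above 0 without scaling and with the deposited values, whereas the diamonds of miR-221-3p all lie below 0 and that of miR-222-3p lies above 0 with the total gene signal, at 1.01.

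The proportion between the members was then compared, since a factor that applies to a whole array cancels in the ratio of its miRNAs. A ratio of signals from different probes does not give the ratio of molecules, so only differences of the ratio between arrays were read. The signal of miR-222-3p divided by that of miR-221-3p was 0.411 ± 0.0355, 0.166 ± 0.0221 and 0.258 ± 0.0201 in 2D (SE over spots). In lr-ECM 3D it was 0.310 ± 0.0189, 0.277 ± 0.0127 and 0.278 ± 0.0190. The lr-ECM 3D arrays were close to each other and lay inside the range of the 2D arrays, so the groups overlapped. On 2D replicate 2, with miR-222-3p below the limit, the ratio has only an upper bound of 0.280.

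The mean ratio was 0.278 ± 0.124 in 2D and 0.288 ± 0.0191 in lr-ECM 3D (SD, n = 3 each). On the log2 scale the means were -1.94 ± 0.66 and -1.80 ± 0.09, a difference of 0.15 (exact two-sided permutation test, p = 0.7). Without 2D replicate 2 the difference was -0.18 (exact permutation test, p = 0.7), so its sign rested on the array where miR-222-3p was not measured above background. With 3 arrays per group a difference in the proportion of the pair was not detectable beyond the spread of the 2D arrays. Between probes of the same miRNA the spread over arrays was narrower. The ratio of the brighter to the dimmer probe of miR-221-3p was 1.503, 1.67 and 1.64 in 2D and 1.61, 1.60 and 1.62 in lr-ECM 3D, and that of the miR-222-3p probes was 1.53, 1.59 and 1.67 in 2D and 1.72, 1.66 and 1.63 in lr-ECM 3D. Group means were 1.61 ± 0.0915 and 1.61 ± 0.0112 for miR-221-3p, and 1.60 ± 0.0738 and 1.67 ± 0.0476 for miR-222-3p (SD, n = 3, exact permutation test for miR-222-3p, p = 0.3). The miR-222-3p value of 1.59 on 2D replicate 2 came from readings not well above background, and the 2D mean includes it.

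**Figure D4:**
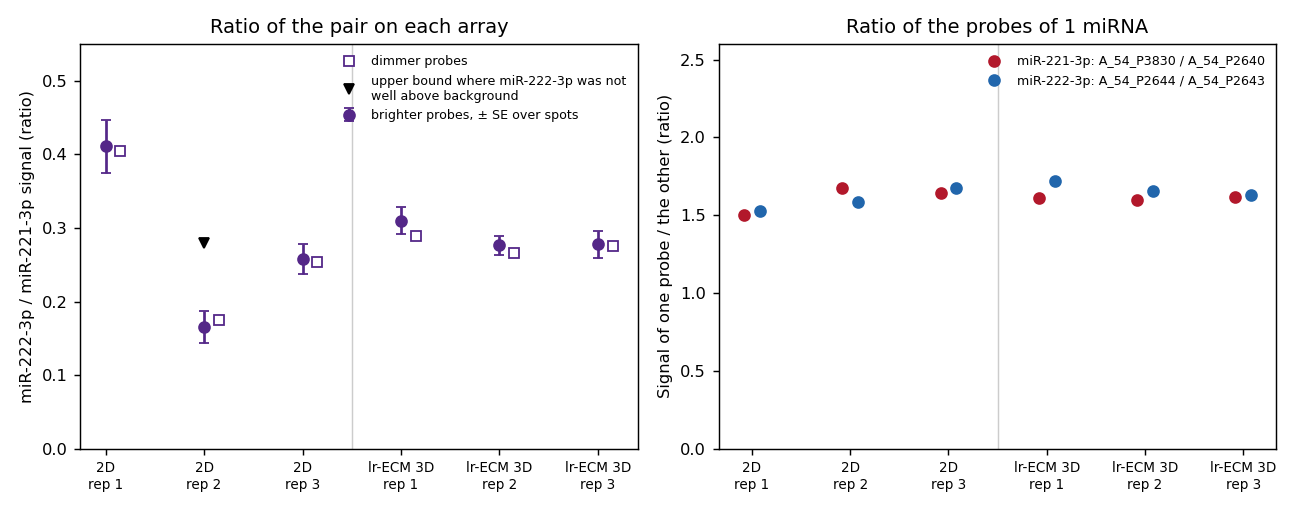
Left, signal of miR-222-3p divided by that of miR-221-3p on each array (filled points, brighter probes with SE over spots; open squares, dimmer probes), with the upper bound of 0.280 on 2D replicate 2 as a black triangle. Right, the ratio of the probes of 1 miRNA on each array. The 2D arrays spread from 0.166 to 0.411 and the lr-ECM 3D arrays from 0.277 to 0.310, while the ratio within each miRNA stays between 1.503 and 1.72 on all arrays. The miR-222-3p point on 2D replicate 2 at the right comes from readings not well above background.

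The members were compared with each other as profiles over the arrays, each log2 profile being centred on its own mean. The root mean square difference between miR-221-3p and miR-222-3p was 0.389 over the 6 arrays. Of the 47 other miRNAs well above background on all 6 arrays, 34 were closer to miR-221-3p than miR-222-3p was, and 41 were closer to miR-222-3p than miR-221-3p was. Without 2D replicate 2 the difference between the members was 0.237, with 41 of the 47 closer to miR-221-3p and 14 closer to miR-222-3p than the other member. With or without the dim array, some other miRNAs were thus nearer to each member than its partner was. The values over 6 arrays include the miR-222-3p reading on 2D replicate 2, which was not well above background, whereas all 47 others were detected there.

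The 5 miRNAs whose profile was most like the mean profile of the pair over 6 arrays were miR-193a-3p (root mean square difference 0.0846), miR-142a-3p (0.119), miR-199a-5p (0.127), miR-199a-3p (0.133) and miR-125b-5p (0.141), against a median of 0.236 and a highest value of 0.831 in the 47. MiR-142a is known as a miRNA of blood cells, and miR-199a and miR-125b are abundant in mesenchymal cells. Their log2 differences ran from -0.70 for miR-193a-3p to -0.36 for miR-125b-5p under this scaling, a sign that follows from choosing them for their likeness to the pair and that turned for all 5 without scaling, with normexp or with the deposited values. Without 2D replicate 2, 2 of these 5 stayed among the closest, namely miR-193a-3p and miR-199a-5p, joined by miR-23b-3p, miR-31-5p and miR-214-3p. The mean profile includes the below-background reading of miR-222-3p on 2D replicate 2.

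Because the pair is known for acting on CDK inhibitors, 11 other miRNAs that have been reported to repress Cdkn1a, Cdkn1b or Cdkn1c were read from the same fit. All 11 were on the array, 8 were tested, and 6 of these were well above background on all 6 arrays. None of the 8 was called in limma, beside 11.7% of all tested miRNAs, and 0 had an unadjusted p under 0.05, beside 24.2%. With the filter on all 6 arrays 0 of 48 miRNAs were called, so the lack of calls does not set this list apart. Adjusted p ranged from 0.319 to 0.862. Their median log2 difference was -0.15, beside -0.11 for all tested miRNAs, and 5 of the 8 lay below the median of all.

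All 8 differences lay below 0 under this scaling, 5 did with quantile normalization, 4 with the 75th percentile of all probes and 2 with the total gene signal, and none did with the 75th percentile of detected probes, without scaling, with normexp or with the deposited values. They were small next to those of the pair, from -0.24 for miR-106b-5p to -0.03 for miR-24-3p. MiR-106b-5p, which is processed from an intron of Mcm7 together with miR-93 and miR-25, had 7.54, 7.89 and 7.68 in 2D and 7.36, 7.51 and 7.51 in lr-ECM 3D as scaled log2 signals, and it was the only 1 of the 8 whose groups did not overlap, beside 22.5% of all tested miRNAs that were lower in lr-ECM 3D without overlap. Its partners miR-25-3p and miR-93-5p differed by -0.21 and -0.08. MiR-17-5p and miR-20a-5p of the miR-17-92 cluster differed by -0.11 and -0.19, and their X-linked relatives miR-106a-5p and miR-20b-5p by -0.07 and -0.18. These related miRNAs are close in sequence and may share probe signal, and the probes taken for miR-17-5p and miR-106a-5p carry older names without an arm. MiR-92b-3p, miR-181a-5p and miR-196a-5p were not well above background on any array and were not tested.

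Other miRNAs of the X chromosome were compared in the same way. The array held 81 miRNAs whose every gene copy lies on X, of which 12 were tested, 10 of them besides the pair, with miR-20b-5p and miR-106a-5p belonging to the CDK list as well. Their log2 differences ranged from -0.85 to 4.36 under this scaling. The lowest was that of miR-98-5p, which carried the detection flag on 1 of the 2D arrays. Its 6.50 on 2D replicate 2 lay below the limit of 7.02 there. The members with differences above 0 under this scaling, miR-652-3p, miR-374c-5p, miR-672-5p and miR-452-5p, carried the detection flag on every lr-ECM 3D array but on at most 1 of the 2D arrays. They were thus tested only through the group where they read higher, and no count or median over the list is read. The fit called 1 of the 10, miR-452-5p (limma, adjusted p = 0.000385), beside 11.7% of all tested miRNAs, and this call rests on 2D readings that were not measured above background. Its scaled log2 signal was 0.68, 0 and 1.41 in 2D and 5.08, 4.98 and 5.12 in lr-ECM 3D. MiR-452-5p failed the flag on every 2D array (not well above background), with 2D replicate 2 at the floor. Since the mean bound of the 2D arrays, 5.26, exceeded its lr-ECM 3D mean of 5.06, no fold over all 2D arrays could be given. The bounds were 4.95 and 3.80 on 2D replicates 1 and 3, below each lr-ECM 3D value, and 7.02 on 2D replicate 2.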

How the data were processed

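Mouse miRNA arrays of LLC1 cells, 3 in 2D and 3 in lr-ECM 3D culture, were grouped by their labels, which name the replicates as biological. Per the file headers the authors extracted spot intensities (linear, background-subtracted) with Feature Extraction 10.7.3.1; the deposited flags and other columns mark outliers and spots well above background. The log2 values that the authors deposited in the series table matched the log2 intensities floored at 1 plus a constant per array within 0.0487, with column means of 1.79, a scale read off the values themselves, and they served as an alternative.

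Control spots and 190 to 369 outlier spots per array were left out, spots of a probe were averaged, each array was scaled to the mean of the 2D arrays over 1712 miRNA probes, values were floored at 1, and log2 was taken. The methods' scaling to the control samples was read in this way. Each miRNA was represented by its brightest probe (mean log2) and counted as well above background with at least 50% of its spots flagged. Those that counted so on every array of at least 1 group were fitted in limma 3.58.1 (R 4.3.3, lmFit and eBayes, two-sided, Benjamini-Hochberg over all tested). Ratios were compared by exact two-sided permutation tests. The pipeline was tested on simulated data. RefSeq names placed 116 of the 120 tested miRNAs on chromosomes.

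The members, the lists and the tests were chosen with earlier results of these data known. The rule for naming took the pair, the tested miRNAs reported to act on CDK inhibitors, called X-linked miRNAs, the 5 most similar profiles and miRNAs with the same seed. MiR-23b-3p, miR-31-5p, miR-214-3p, untested CDK list members, X-linked miRNAs that were not called and Gm14636 were added after values were seen. Alternatives covered the scaling, background correction, summary of a miRNA, floor, filter, variance prior, the methods' t-test, replicate block and leaving out each array. The number of arrays limits the precision.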

Additional observations from a re-analysis of the deposited data

How the results depend on the processing

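Changed signs of the log2 difference were 0.68 (no scaling), 0.18 (normexp) and 0.18 (deposited values) for miR-221-3p, and 0.83 (no scaling), 1.66 (total gene signal; 1.01 relative to the median) and 0.38 (deposited values) for miR-222-3p, which was also called with quantile normalization (-1.03). No change of sign was called, and adjusted p ranged from 0.113 to 0.779 for miR-221-3p and from 0.00249 to 0.986 for miR-222-3p in limma or the methods' t-test. Leaving out each array gave -0.94 to -0.30 for miR-221-3p and -0.65 to -0.46 for miR-222-3p. Holding miR-222-3p at the limit of the dim array, chosen after seeing the data like the values relative to the median and the profiles without 2D replicate 2, gave -0.78 (limma, adjusted p = 0.197). The log2 ratio of the pair turned to -0.20 (normexp), -0.50 (quantile), -0.18 (without 2D replicate 2) and -0.11 (miR-222-3p at the limit), ranged from -0.18 to 0.48 without each array in turn, and had exact permutation p from 0.1 to 0.8. The count of called miRNAs, 14, moved to 25 (75th percentile of all probes), 27 (no scaling and deposited values), 24 (quantile), 26 (total gene signal), 32 (no filter, and without 2D replicate 2) and 0 (filter on all 6 arrays, limma, where 7 had an unadjusted p under 0.05), and ranged from 12 to 32 without each array in turn. The count of called X-linked miRNAs was 1, beside 14 called of all tested. It became 2 with the 75th percentile of all probes (25 called of all tested), no scaling (27), total gene signal (26), a floor at 10 (18) and deposited values (27). It was also 2 with no filter (32) and without 2D replicate 2 (32). With quantile it was 4 (24), where miR-222-3p, itself on X, was called. It was 0 with normexp (11) and with the filter on all 6 arrays (0). Leaving out each array gave 1 to 2. As the members above 0 under the main scaling were tested only through lr-ECM 3D, no result is read from this count. The count of called miRNAs of the CDK list was 0 under all 21 alternatives. Of the 5 most similar profiles 1 was shared with normexp, 0 with total gene signal and 2 without 2D replicate 2. The cause of these changes was not tested. The filter on all 6 arrays left no value for miR-222-3p, and no alternative was run for other arms of the pair, of which the array holds 0.

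Replicate numbers showed no pairing of the arrays (correlations of deviations -0.32, -0.37 and 0.16, with 1 of 3 lr-ECM 3D and 0 of 3 2D arrays correlating best with their own number). With 3 arrays per group this check cannot exclude a pairing. With the replicate block the differences stayed at -0.68 for miR-221-3p (limma, adjusted p = 0.283), -0.53 for miR-222-3p (adjusted p = 0.148) and 0.15 for the log2 ratio (exact sign-flip permutation test, p = 0.75), with 12 miRNAs called, 1 of them X-linked and 0 of the CDK list.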
